A study of Rattus norvegicus with 20 samples.

Results

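Among the 32623 Ensembl gene IDs counted in cultured rat neural stem cells, 4 were chosen by their reads, which were well detected under CHIR99021 and near 0 in unstimulated cells or under light. They are ENSRNOG00000013859, ENSRNOG00000006723, ENSRNOG00000002728 and ENSRNOG00000008697. The files and the gene table provided with them pair no ID with a symbol, so the genes are known here by ID alone, without a function or a sequence. The choice used the CHIR99021, light and unstimulated levels, so those levels are described below and were not tested. Wnt3a levels took no part in it.

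The cells were hippocampal neural stem cells from adult Fisher 344 rats, held in basal medium with little serum, and each of 20 libraries profiled the 3' ends of their messenger RNA. Stimulated cells carried optoWnt and received CHIR99021 (3 mM as the labels give it, 5 libraries), Wnt3a (100 ng/mL, 5 libraries) or light (4 libraries). The stimulus stayed ON for 1, 3 or 5 d, or was ON for 1 d and then OFF for 1 or 2 d, with 1 library for each inducer and profile and none for light at 5 d. Cells with no inducer, called unstimulated here, were sequenced at 0, 3 and 5 d, as 1 optoWnt and 1 wild-type library at each time. The titles of those at 3 and 5 d also carry the word ON, with their illumination not given in the sources used here. The optoWnt cells were a puromycin-selected transduced population, and the labels do not say whether libraries came from separate cultures, so all spreads below may be technical. The cell type could not be checked against its markers, because no ID has a symbol.

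In canonical Wnt signalling, β-catenin is marked for destruction by a complex that includes the kinase GSK-3. A Wnt ligand such as Wnt3a binds its receptors, among them LRP6, which halts the complex and lets β-catenin enter the nucleus and act with TCF/LEF factors on target genes. CHIR99021 is a small molecule that inhibits GSK-3 directly, below the receptors, and GSK-3 also acts on many proteins outside this pathway. OptoWnt is a light-sensitive form of LRP6 that clusters under illumination. In adult hippocampal neural stem cells, Wnt signalling is known for its part in the formation of neurons.

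Total reads ran from 696463 (Wnt3a, 1 d) to 5935681 (optoWnt unstimulated, 3 d). Levels are given as CPM, the reads of a gene per 1000000 total reads of its library, and intervals are exact 95% Poisson intervals that cover counting error only. A ratio between single libraries has no replicate check. The counting floor, the level of 3 reads, ran from 0.505 CPM in the deepest library to 4.31 CPM in the shallowest. On the first principal component of all libraries, which held 29.4% of the variance, 6 libraries stood apart from the other 14. These were the CHIR99021 and the Wnt3a library withdrawn for 2 d, Wnt3a at 5 d ON, light at 3 d ON, and the unstimulated wild-type cells of 0 and of 5 d. In bulk RNA of this kind, more cells that express a gene and more RNA per cell cannot be told apart.

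**Figure D1:**
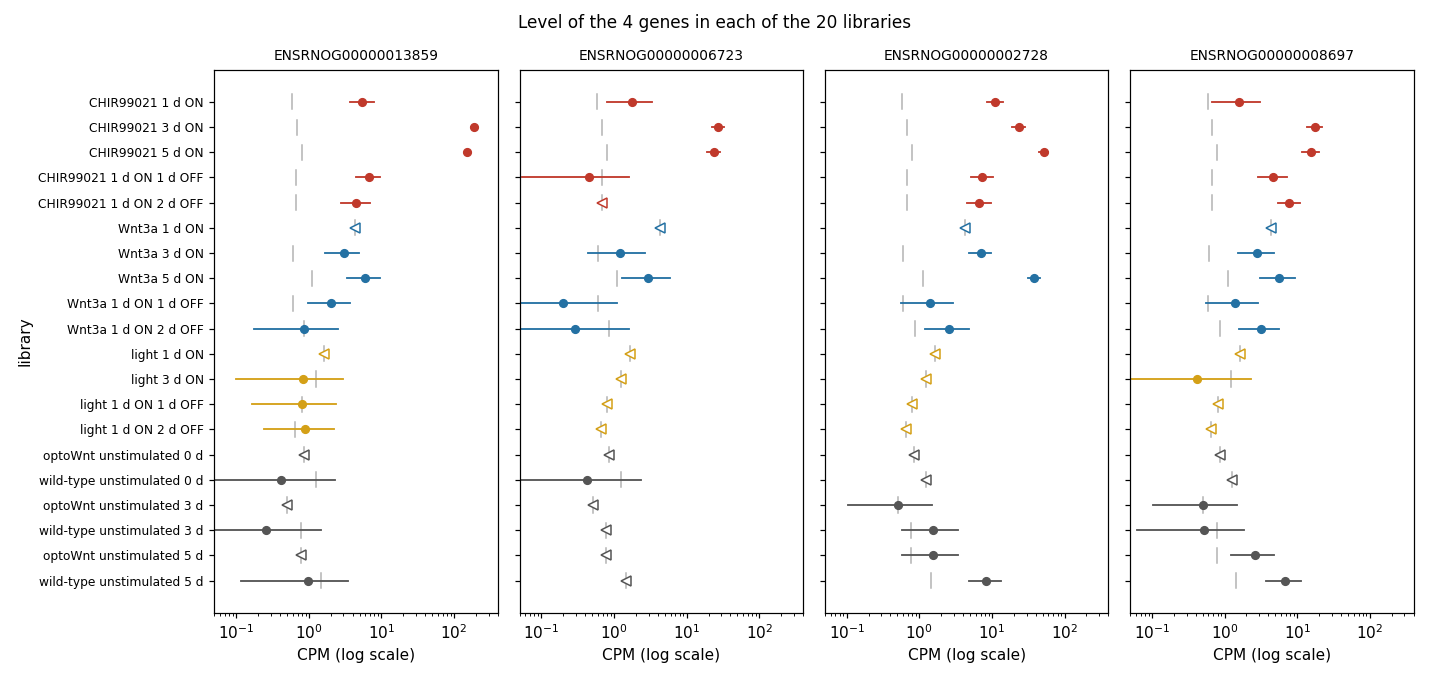
Level of each gene in each of the 20 libraries, in CPM on a log axis. Filled points are levels with their exact 95% Poisson interval, open triangles mark libraries with 0 reads and stand at the floor of 3 reads, and grey ticks mark that floor. The highest points of ENSRNOG00000013859 are 185 and 152 CPM under CHIR99021 at 3 and 5 d ON, and no light library of any gene exceeds 0.872 CPM.

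ENSRNOG00000013859 was the highest of the 4 and stood far above its other levels in constant CHIR99021 of 3 d or more. Under CHIR99021 left ON it stood at 5.46 CPM at 1 d, 185 CPM at 3 d and 152 CPM at 5 d, from 28, 819 and 570 reads. After 1 d ON it stood at 6.71 CPM with 1 d OFF and at 4.48 CPM with 2 d OFF. Wnt3a libraries held 0 reads at 1 d (floor 4.31 CPM), 3.02 CPM at 3 d, 5.94 CPM at 5 d, 2 CPM after 1 d OFF and 0.861 CPM after 2 d OFF. Both constant CHIR99021 libraries of 3 and 5 d thus lay far above every Wnt3a library, while the other 3 CHIR99021 libraries had intervals that overlap that of Wnt3a at 5 d. Light gave 0 reads at 1 d (floor 1.63 CPM), 0.826 CPM at 3 d, 0.8 CPM after 1 d OFF and 0.872 CPM after 2 d OFF. In unstimulated cells the 3 wild-type libraries held 0.417, 0.26 and 0.97 CPM at 0, 3 and 5 d, and the 3 optoWnt libraries held 0 reads. All 6 unstimulated libraries and 3 of the 4 light libraries were at or under their own floor. Pooled, light held 9 reads of this gene, 0.714 CPM (interval 0.327 to 1.36), against 4 reads in unstimulated cells, 0.185 CPM (0.0504 to 0.474). These separate intervals overlap, which does not show equal levels, and the difference was not tested.

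ENSRNOG00000006723 was above the floor in the fewest libraries, 5 of 20, and was the only one of the 4 without a read 2 d after CHIR99021 was withdrawn. It stood at 1.76, 27.2 and 23.4 CPM at 1, 3 and 5 d ON under CHIR99021, at 0.448 CPM (2 reads) after 1 d OFF and at 0 reads after 2 d OFF (floor 0.671 CPM). Under Wnt3a it had 0 reads at 1 d, 1.21 CPM (6 reads) at 3 d and 2.97 CPM (8 reads) at 5 d, and 1 read in each withdrawn library. All 4 light libraries held 0 reads, with floors of 1.63, 1.24, 0.8 and 0.654 CPM at 1 d ON, 3 d ON, 1 d OFF and 2 d OFF. Of the 6 unstimulated libraries, wild-type 0 d held 1 read (0.417 CPM) and the others 0. A Wnt3a level above the floor was therefore seen in the 2 constant libraries of 3 and 5 d alone, and the pooled light reads, 0, have an exact upper limit of 0.293 CPM.

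ENSRNOG00000002728 was detected after the first day of CHIR99021 and was still higher at 5 d than at 3 d. Its levels under constant CHIR99021 were 11.1, 23.3 and 52.1 CPM at 1, 3 and 5 d, and after withdrawal 7.38 CPM (1 d OFF) and 6.71 CPM (2 d OFF). Constant Wnt3a gave 0 reads at 1 d (floor 4.31 CPM), 7.04 CPM at 3 d and 37.9 CPM at 5 d, and withdrawn Wnt3a gave 1.4 CPM (1 d OFF) and 2.58 CPM (2 d OFF). It had the highest Wnt3a level of the 4 genes, and its Wnt3a 5 d library lay above CHIR99021 at 3 d. No read of it was found in any light library, which over the 12596643 light reads gives an exact upper limit of 0.293 CPM. Unstimulated optoWnt cells held 0 reads, 0.505 and 1.55 CPM at 0, 3 and 5 d, and wild-type cells 0 reads, 1.56 and 8.24 CPM. It was thus not near 0 in unstimulated cells of 5 d, where the wild-type library (17 reads) lay above both withdrawn CHIR99021 libraries with intervals that overlap theirs.

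ENSRNOG00000008697 was also present in unstimulated cells of 5 d, and its level was higher 2 d after CHIR99021 was withdrawn than at 1 d ON. CHIR99021 left ON gave 1.56, 17.4 and 15.4 CPM at 1, 3 and 5 d, and withdrawn CHIR99021 gave 4.7 CPM (1 d OFF) and 7.83 CPM (2 d OFF). Wnt3a gave 0 reads, 2.82 and 5.57 CPM at 1, 3 and 5 d ON, then 1.4 and 3.16 CPM at 1 and 2 d OFF. Light 3 d ON held 1 read (0.413 CPM) and the other 3 light libraries held 0. Unstimulated optoWnt cells stood at 0 reads, 0.505 and 2.59 CPM at 0, 3 and 5 d, and wild-type cells at 0 reads, 0.52 and 6.79 CPM. The unstimulated wild-type 5 d library therefore lay above all 5 Wnt3a libraries, and that library and Wnt3a 5 d ON both stand apart on the first component.

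Averaged over the 2 constant CHIR99021 libraries of 3 and 5 d and the 4 unstimulated ones, ENSRNOG00000013859 stood at 168 ± 23.9 against 0.307 ± 0.458 CPM (SD, n = 2 and 4). Pooled reads gave a ratio of 889 (interval 304 to 4317) from 1389 against 3 reads. ENSRNOG00000006723 stood at 25.3 ± 2.66 CPM against 0 reads in all 4 (SD, n = 2). Its pooled level was 133 times that of 3 reads over those libraries (exact lower limit of the ratio 107). ENSRNOG00000002728 averaged 37.7 ± 20.4 against 2.96 ± 3.55 CPM (SD, n = 2 and 4), or 1.21 ± 0.607 CPM (n = 3) in unstimulated cells without wild-type 5 d. ENSRNOG00000008697 averaged 16.4 ± 1.42 against 2.6 ± 2.96 CPM, or 1.2 ± 1.2 CPM without wild-type 5 d. The genes were chosen on these levels, so the distance between the groups is not a result. In edgeR's quasi-likelihood fit of the 9 constant and unstimulated libraries of 3 and 5 d, 3 of the 4 genes were called higher under constant CHIR99021 (all but ENSRNOG00000008697). The same held for 0.908% of the 11566 genes tested, and since this contrast chose the 4 genes the count carries no weight.

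The onset under CHIR99021 differed between the genes. ENSRNOG00000013859 had 28 reads at 1 d of CHIR99021 against 1 read pooled over both 0 d libraries, a ratio of 32.3 (interval 5.34 to 1321), and it was a further 33.9-fold higher (23.3 to 51.4) at 3 d than at 1 d. ENSRNOG00000002728 at 1 d was 21.9 times the level of 3 reads over the 0 d libraries, which held 0 (exact lower limit of the ratio 17.3). It was only 2.1-fold higher (1.5 to 2.95) at 3 d than at 1 d. ENSRNOG00000006723 and ENSRNOG00000008697 lay between them, at 15.5-fold (7.88 to 34.7) and 11.2-fold (5.39 to 26.8) at 3 d over 1 d. At 1 d over 0 d, ENSRNOG00000006723 had 9 reads against 1, a ratio of 10.4 (1.44 to 455). ENSRNOG00000008697 had 8 against 0 (exact lower limit of the ratio 1.97). No unstimulated library of 1 d was analysed here, so ratios over 0 d mix a day of culture with CHIR99021. The 0 d reads of ENSRNOG00000013859 and ENSRNOG00000006723 came from wild-type cells, a library that stands apart. All 4 were at least 2-fold higher at 3 d than at 1 d, as were 12.0% of 12190 genes kept by the low-count filter (1466 genes). Between 3 and 5 d, ENSRNOG00000002728 parted from the others. ENSRNOG00000002728 was 2.24-fold higher (1.75 to 2.87) at 5 d than at 3 d, as 7.37% of kept genes were by 2-fold or more. The others had similar ratios. ENSRNOG00000013859 was at 0.818 of its 3 d level (0.733 to 0.911), ENSRNOG00000006723 at 0.86 (0.647 to 1.14) and ENSRNOG00000008697 at 0.885 (0.618 to 1.26). The interval of ENSRNOG00000013859 is narrower because it had more reads, and single libraries cannot show that its level fell.

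**Figure D2:**
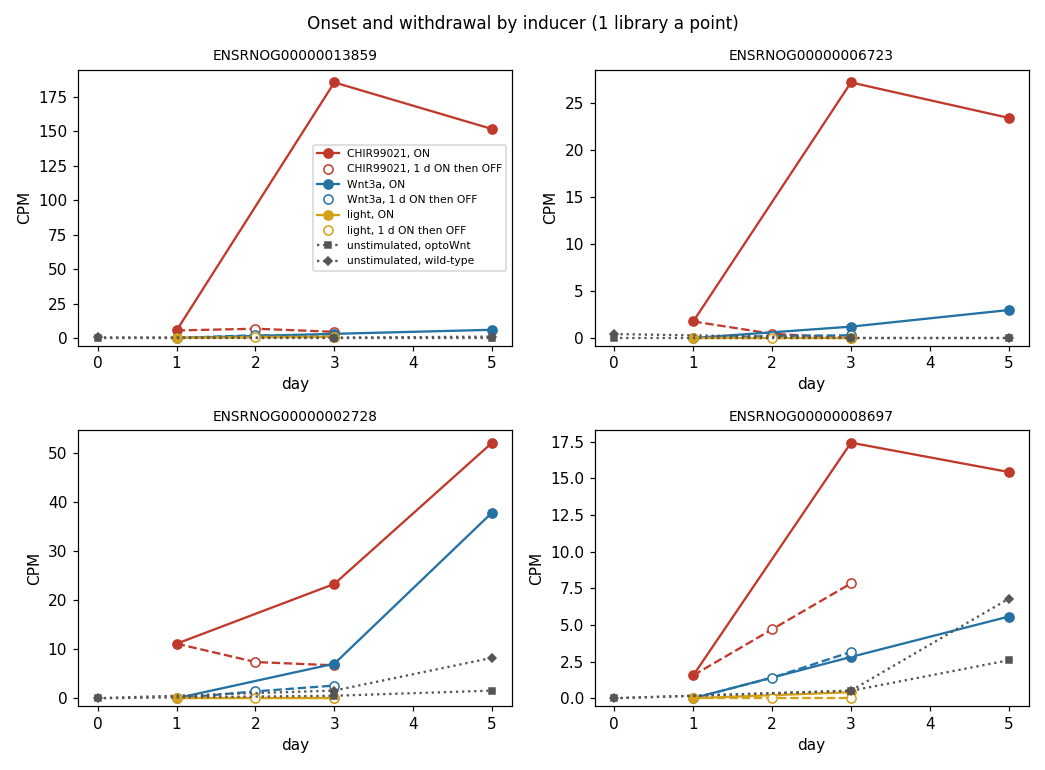
CPM of each gene against day, 1 library a point, on a linear axis that differs between panels. Solid lines join libraries left ON, dashed lines and open points show 1 d ON followed by OFF, and dotted lines show unstimulated cells. Dashed CHIR99021 lines stay low for ENSRNOG00000013859 (6.71 and 4.48 CPM) and climb to 7.83 CPM for ENSRNOG00000008697.

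Dependence on continued CHIR99021 was read at day 3, where CHIR99021 3 d ON was set against 1 d ON 2 d OFF, a library that stands apart. ENSRNOG00000013859 was 41.4-fold higher (26.6 to 68.2) with the compound left ON. ENSRNOG00000006723 stood at 40.5 times the level of 3 reads, against 0 reads found (exact lower limit of the ratio 32.4). The differences of ENSRNOG00000002728, 3.47-fold (2.29 to 5.4), and ENSRNOG00000008697, 2.23-fold (1.47 to 3.42), were smaller. All 4 differed by 2-fold or more, as 17.3% of kept genes did in that direction. All 4 also passed 2-fold against 1 d ON 1 d OFF, as 13.4% of kept genes did. Against that library, which does not stand apart but is a day younger, CHIR99021 3 d ON was higher by 27.6-fold (19.2 to 41.2), 60.7-fold (16.4 to 507), 3.16-fold (2.12 to 4.83) and 3.71-fold (2.26 to 6.33) in the same order. In both comparisons the intervals of the first 2 genes lay above those of the other 2.

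After withdrawal the genes differed in where they stood relative to the first day. Relative to 1 d ON, 2 d OFF left ENSRNOG00000013859 at 0.819 (interval 0.437 to 1.51), which includes 1, and ENSRNOG00000002728 at 0.604 (0.375 to 0.955), against 0.664 (0.419 to 1.04) at 1 d OFF, which includes 1. ENSRNOG00000006723 had 0 reads against 9 at 1 d ON, an upper bound of 0.581 on the ratio, and at 1 d OFF its ratio was 0.255 (0.0268 to 1.23). ENSRNOG00000008697 was 5.02-fold higher (2.29 to 12.5) at 2 d OFF than at 1 d ON, and 3.01-fold higher (1.28 to 7.86) at 1 d OFF. Cells given CHIR99021 for the first day alone were at least 2-fold above unstimulated cells of day 3, with a level above the floor, for 3 of the 4 genes and for 11.7% of kept genes. The ratios were 43.8 (7 to 1815) for ENSRNOG00000013859, 7.3 (3.38 to 17.5) for ENSRNOG00000002728 and 15.3 (5.98 to 50.1) for ENSRNOG00000008697, while both sides had 0 reads of ENSRNOG00000006723. The withdrawn library here is the one that stands apart, and no unstimulated library of day 2 was analysed here to set beside 1 d OFF.

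Wnt3a was the inducer that the choice of genes did not use, but the unstimulated levels it is set against were part of that choice. Genes chosen for low unstimulated levels lean towards a higher level in any other group, so the p-values below are too small by an unknown amount and are given as a description of these libraries. Both constant Wnt3a libraries lay above all 4 unstimulated libraries of 3 and 5 d for ENSRNOG00000013859 and ENSRNOG00000006723, as they did for 5.74% of kept genes, and not for the other 2. ENSRNOG00000013859 stood at 4.48 ± 2.07 against 0.307 ± 0.458 CPM (SD, n = 2 and 4), a ratio of pooled reads of 21.2 (interval 6.61 to 108). ENSRNOG00000006723 stood at 2.09 ± 1.25 CPM against 0 reads (SD, n = 2). Its pooled level was 9.57 times that of 3 reads over the 4 libraries (exact lower limit of the ratio 6.8). ENSRNOG00000002728 averaged 22.5 ± 21.8 against 2.96 ± 3.55 CPM (SD, n = 2 and 4), and ENSRNOG00000008697 averaged 4.19 ± 1.95 against 2.6 ± 2.96 CPM. For ENSRNOG00000008697 the pooled ratio was 2.05 (1.18 to 3.55), but at 5 d against wild-type cells alone it was 0.821 (0.369 to 1.83), where both libraries stand apart. The Wnt3a cells were optoWnt. Unstimulated optoWnt cells of 5 d stood at 2.59 CPM (1.24 to 4.76), lower than the 5.57 CPM (3.12 to 9.19) of Wnt3a 5 d ON, with intervals that overlap.

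None of the 4 passed edgeR's quasi-likelihood test across 11566 genes for constant Wnt3a against unstimulated cells, a fit in which 1 gene, 0.00865%, was called higher and 287 had an unadjusted p under 0.05 in that direction. The genes entered this fit through their CHIR99021 reads, and their unstimulated levels helped to choose them. Its p-values and calls for the 4, here and in the alternatives below, therefore cannot show a response to Wnt3a or its absence. ENSRNOG00000002728 was fitted 4.26 higher on the log2 scale (SE 0.72, edgeR adjusted p = 0.231, unadjusted p = 0.00018) and ENSRNOG00000008697 1.69 higher (SE 0.97, edgeR adjusted p = 0.877). The edgeR adjusted p was 0.274 for ENSRNOG00000013859 (unadjusted p = 0.000257) and 0.877 for ENSRNOG00000006723 (unadjusted p = 0.00508). These calls depended on the fit. With no low-count filter, the first 3 genes named at the start were called (edgeR adjusted p of 5.83e-05, 0.0394 and 0.000449), and by DESeq2 ENSRNOG00000013859 (adjusted p = 0.00893) and ENSRNOG00000002728 (adjusted p = 0.000278). Without the libraries that stand apart, ENSRNOG00000013859 (edgeR adjusted p = 0.00869) and ENSRNOG00000002728 (0.0127) had an adjusted p under 0.05. That fit held 1 Wnt3a library and 1 residual degree of freedom, so the lone library was assumed to vary like the other groups.

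With the same limit, all 5 Wnt3a libraries were also set against all 6 unstimulated ones by an exact two-sided permutation test of mean log2(CPM + 1), unadjusted, for each gene. Both arms mix days, and the Wnt3a libraries are all optoWnt while 3 of the 6 unstimulated ones are wild-type. ENSRNOG00000013859 averaged 1.46 under Wnt3a and 0.30 in unstimulated cells, a difference of 1.15 (exact p = 0.0563), and 3 of 5 Wnt3a libraries lay above the highest unstimulated one. ENSRNOG00000006723 averaged 0.75 under Wnt3a and 0.08 in unstimulated cells, a difference of 0.67 (exact p = 0.0823, 2 of 5 libraries). ENSRNOG00000002728 averaged 2.28 under Wnt3a and 1.08 in unstimulated cells, a difference of 1.19 (exact p = 0.286, 1 of 5), and ENSRNOG00000008697 averaged 1.59 under Wnt3a and 1.00 in unstimulated cells, a difference of 0.59 (exact p = 0.407, 0 of 5). None passed 0.05. The shallow Wnt3a 1 d library had 0 reads of all 4 with a floor of 4.31 CPM, and without it the p-values were 0.019 for ENSRNOG00000013859 and 0.0286 for ENSRNOG00000006723 (exact tests). ENSRNOG00000013859 was also under 0.05 without wild-type 5 d (exact p = 0.0476), and ENSRNOG00000006723 without wild-type 0 d, its one unstimulated library with a read (exact p = 0.0476). Other alternatives stayed above 0.05. Without the libraries that stand apart the exact p was 0.286 for both genes, with differences of 1.11 for ENSRNOG00000013859 and 0.468 for ENSRNOG00000006723. Without the 0 d libraries the exact p was 0.143 for ENSRNOG00000013859 (difference 1.13) and 0.0794 for ENSRNOG00000006723 (difference 0.752). Fewer libraries by themselves limit how small an exact p can be. In the edgeR fit of these 11 libraries none of the 4 genes passed the low-count filter, and 0 of 10588 genes were called (420 with an unadjusted p under 0.05, 3 called by DESeq2). With no filter the edgeR adjusted p was 0.836 for each of the 4.

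At matched profiles, CHIR99021 exceeded Wnt3a in every pair of 3 d or more of constant stimulus, by amounts that differed between the genes. At 3 d ON the ratio was 61.4 (interval 37 to 110) for ENSRNOG00000013859, 22.5 (10 to 62.5) for ENSRNOG00000006723, 3.31 (2.24 to 5.01) for ENSRNOG00000002728 and 6.19 (3.47 to 11.8) for ENSRNOG00000008697. All 4 were at least 2-fold higher, as 7.05% of kept genes were. At 5 d ON the ratios were 25.5 (15.6 to 44.9), 7.88 (3.83 to 18.8), 1.38 (1.08 to 1.77) and 2.77 (1.55 to 5.26) in the same order, so 3 of the 4 were at least 2-fold higher, as were 26.8% of kept genes. Each ratio was smaller at 5 d than at 3 d, and the Wnt3a 5 d library stands apart. Under Wnt3a, ENSRNOG00000002728 was 5.38-fold higher (3.63 to 8.14) at 5 d than at 3 d. ENSRNOG00000006723 also passed 2-fold there (2.46, 0.749 to 8.61), as 19.8% of kept genes did, while the median kept gene differed by -0.24 on the log2 scale.

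**Figure D3:**
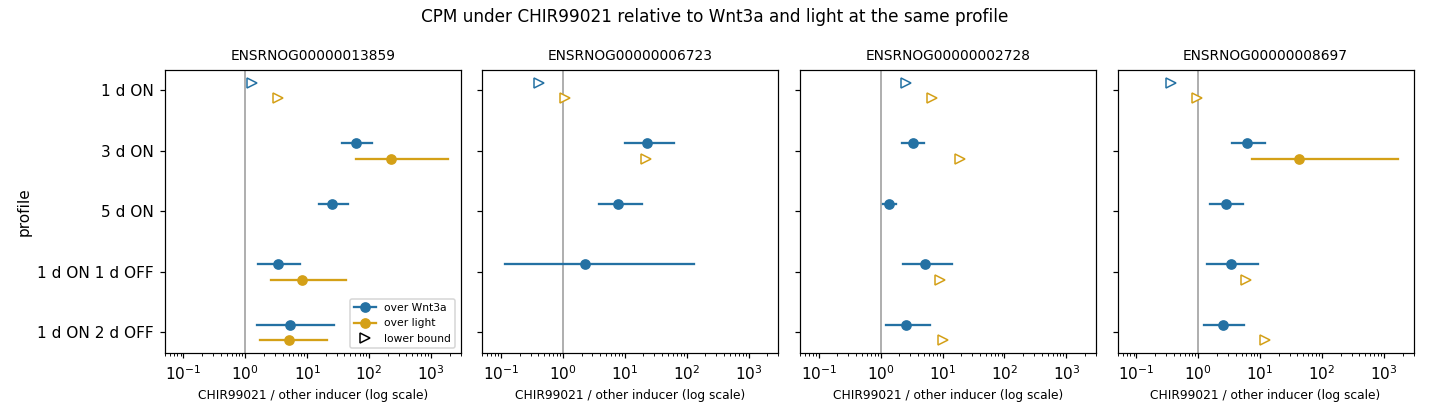
Ratio of CPM under CHIR99021 to that under Wnt3a (blue) or light (yellow) at the same profile, 1 library each, on a log axis. Bars are exact 95% intervals for counting error. Open triangles, labelled lower bound, are ratios to 3 reads where the other library had 0, and the exact lower limits are smaller. Over Wnt3a at 3 d ON the ratios run from 3.31 to 61.4.

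With the inducer withdrawn, 3 of the 4 genes were still at least 2-fold higher after CHIR99021 than after Wnt3a. After 1 d OFF the ratios were 3.36 (1.6 to 7.7) for ENSRNOG00000013859, 5.28 (2.3 to 14.1) for ENSRNOG00000002728 and 3.36 (1.38 to 9.36) for ENSRNOG00000008697, against 3.49% of kept genes past 2-fold. After 2 d OFF they were 5.2 (1.54 to 27.3), 2.6 (1.2 to 6.22) and 2.48 (1.23 to 5.42) in the same order, against 7.52%. ENSRNOG00000006723 had 2 reads against 1 after 1 d OFF, and 0 against 1 after 2 d OFF, so no difference was detectable at this depth. At 1 d ON the depth of the Wnt3a library, which held 0 reads, allows little. CHIR99021 stood at 1.27 times the level of 3 reads there for ENSRNOG00000013859 and 2.58 times for ENSRNOG00000002728. The exact lower limits of these ratios were 0.965, which is below 1, and 2.03. The other 2 genes lay below the floor of 3 reads.

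Light was at or near the floor throughout. At 3 d ON, CHIR99021 was higher than light by 224-fold (interval 61.9 to 1857) for ENSRNOG00000013859 and 42.2-fold (7.35 to 1688) for ENSRNOG00000008697, from 2 and 1 light reads. Where light had 0 reads, the level was 21.9 times that of 3 light reads for ENSRNOG00000006723 and 18.8 times for ENSRNOG00000002728. The exact lower limits of these ratios were 17.6 and 15. All 4 passed 2-fold, as 20.3% of kept genes did. This light library stands apart. After 1 d ON 1 d OFF, where neither library does, CHIR99021 was higher by 8.39-fold (2.61 to 43) for ENSRNOG00000013859. ENSRNOG00000002728 and ENSRNOG00000008697 stood at 9.23 and 5.87 times the level of 3 light reads (exact lower limits of the ratio 7.1 and 4.37). ENSRNOG00000006723 had 2 reads against 0. After 1 d ON 2 d OFF, where the CHIR99021 library stands apart, ENSRNOG00000013859 was 5.13-fold higher (1.72 to 20.7). ENSRNOG00000002728 and ENSRNOG00000008697 stood there at 10.3 and 12 times the level of 3 light reads (exact lower limits of the ratio 7.85 and 9.24). Pooled over both light libraries of day 3, ENSRNOG00000013859 had 6 reads, 0.856 CPM (0.314 to 1.86). Unstimulated cells of day 3 had 1 read of it, 0.102 CPM (0.00259 to 0.57). ENSRNOG00000002728 had 0 light reads, with an exact upper limit of 0.526 CPM, against 0.92 CPM (0.421 to 1.75). ENSRNOG00000008697 had 0.143 CPM (0.00361 to 0.795) against 0.511 CPM (0.166 to 1.19), and ENSRNOG00000006723 had no read on either side. For each gene the separate intervals overlap, which does not show equal levels, and the differences were not tested.

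Over the 20 libraries, some of the 4 genes were more alike than others. Pearson's r of log2(CPM + 1) over the libraries was 0.945 between ENSRNOG00000013859 and ENSRNOG00000006723 and 0.911 between ENSRNOG00000002728 and ENSRNOG00000008697, and from 0.706 to 0.817 for the other 4 combinations. These values share the libraries and their depth, many rest on levels at the floor, and most of the levels were used to choose the genes. A high r does not mean the same course under CHIR99021. ENSRNOG00000002728 and ENSRNOG00000008697 stood at 2.24 and 0.885 of their 3 d level at 5 d ON. At 2 d OFF they stood at 0.604 and 5.02 of their level at 1 d ON. ENSRNOG00000013859 and ENSRNOG00000006723 were at or under the floor in 11 and 15 libraries, including all 6 unstimulated ones. ENSRNOG00000002728 and ENSRNOG00000008697 were so in 8 and 9 libraries, with unstimulated levels above the floor in 3 and 2 libraries.

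By order of level, constant CHIR99021 of 3 and 5 d came first for ENSRNOG00000013859, ENSRNOG00000006723 and ENSRNOG00000008697. Their intervals, for counting error only, were clear of every other library. For the first of these, CHIR99021 1 d OFF, Wnt3a 5 d ON, CHIR99021 1 d ON and CHIR99021 2 d OFF followed with overlapping intervals from 2.73 to 9.65 CPM. For ENSRNOG00000002728 the order was CHIR99021 5 d ON, Wnt3a 5 d ON, CHIR99021 3 d ON and CHIR99021 1 d ON. The first 2 of these had intervals of 45.1 to 60 and 30.9 to 46 CPM, which overlap slightly. Wild-type unstimulated 5 d was the fifth there, with an interval of 4.8 to 13.2 CPM, and the fourth for ENSRNOG00000008697, with one of 3.71 to 11.4 CPM.

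Applied as a numeric limit, the pattern of at least 10 CPM in both constant CHIR99021 libraries of 3 and 5 d with no more than 3 reads in each unstimulated and light library held for 6 of 32623 IDs. Of the 4 genes, ENSRNOG00000006723 was among the 6. ENSRNOG00000013859 fell just outside with 4 reads in light 1 d ON 2 d OFF. ENSRNOG00000002728 fell outside with 17 reads in wild-type unstimulated 5 d, and 6 each in wild-type 3 d and optoWnt 5 d. ENSRNOG00000008697 did so with 14 reads in wild-type unstimulated 5 d and 10 in optoWnt 5 d. Outside the 4, the 2 genes most like the mean of their profiles, among 12186 others ranked over the 20 libraries, were ENSRNOG00000013683 (Pearson's r of 0.968) and ENSRNOG00000031743 (0.947). ENSRNOG00000013683 stood at 4.68, 26.9 and 37 CPM at 1, 3 and 5 d of CHIR99021, at 0 reads, 1.81 and 4.09 CPM under Wnt3a, and at no more than 1.45 CPM in any unstimulated and 0.545 CPM in any light library. ENSRNOG00000031743 reached 69 CPM at 3 d and 44.4 CPM at 5 d of CHIR99021, but its unstimulated levels, from 3.03 to 10.2 CPM, were not near 0.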

How the data were processed

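The authors deposited raw counts of reads per Ensembl gene ID and plate well, whole numbers with no normalization. Libraries were made with a 3' end kit (QuantSeq, low input), per the labels. The submitters' processing notes name Bowtie2, Subread, featureCounts and the build Rnor_6.0, with strand, trimming and multi-mapping settings not given in the sources used here, so reads of overlapping or near-identical genes may be misassigned. Wells were tied to libraries through the labels, and 0 of 32623 IDs matched a symbol, so the planned marker and Wnt gene lists were not run. CPM used total reads. Constant Wnt3a was tested with edgeR 4.0.16 (R 4.3.3, TMM, filterByExpr by profile) on 9 libraries with day, genotype and inducer (3 residual degrees of freedom), and all Wnt3a libraries on 11 with genotype (8 residual degrees of freedom), with Benjamini-Hochberg adjustment over all genes tested and a threshold of 0.05. DESeq2 1.42.0 was an alternative. The fits were also run on simulated counts with the same spread for every gene and no day or genotype effect, which does not vouch for their calls here. Permutation tests used SciPy 1.17.1 and a pseudocount of 1 CPM. Libraries averaged together were distinct (chi-square per degree of freedom from 31.2 to 110 over 7 pairs). They thus differed by far more than counting error, which is all that the Poisson and ratio intervals cover. The libraries of each pair differ in day or genotype. Shares of genes past 2-fold use levels raised to the floor of 3 reads. Members, lists and comparisons were chosen with earlier results of these data known. Genes named are the 4 members and the 2 other genes most like their mean standardized profile.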

Additional observations from a re-analysis of the deposited data

Results flagged for a closer look

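In each inducer group, and in unstimulated cells, the highest and lowest library was compared with the others by Dixon's criterion. It flags about 1 in 20 groups by chance where values are normally distributed. Of 14 groups with any spread, 5 had a library far from the rest, and the libraries of a group differ in profile or day. That rate does not hold here, so the 5 show no excess. A lone read among libraries of 0 reads is always flagged, and CHIR99021, light and unstimulated levels also chose the genes. ENSRNOG00000002728 stood out at 37.9 CPM in Wnt3a 5 d ON among 5 Wnt3a libraries, and at 8.24 CPM in wild-type 5 d among 6 unstimulated libraries. Both libraries stand apart on the first principal component, and the part of this in the levels was not tested. The other 3 rest on single reads or on shallow libraries. ENSRNOG00000006723 had 0.417 CPM (1 read) in wild-type 0 d among 6 unstimulated libraries, ENSRNOG00000008697 had 0.413 CPM (1 read) in light 3 d ON among 4 light libraries, and ENSRNOG00000013859 had 0 CPM in light 1 d ON among 4 light libraries, where the floor was 1.63 CPM.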

How the results depend on the processing

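Constant Wnt3a against unstimulated cells called 1 gene. That count was 0 with total reads in place of TMM, 88 with no low-count filter, 36 by DESeq2 and 34 without the libraries that stand apart, and it ran from 0 to 3 when each of the 9 libraries was left out in turn. It was 3 without optoWnt unstimulated 5 d, 1 without either Wnt3a library, and 0 without any other single library. All Wnt3a libraries against unstimulated ones called 0 genes, 0 to 0 with each of 11 libraries left out, and 3 by DESeq2. The 4 genes kept a higher fitted level under constant Wnt3a in every alternative run, and their calls changed only in the fits named above. Leaving out single libraries moved the permutation differences of mean log2(CPM + 1) between 0.819 and 1.52 for ENSRNOG00000013859 (exact p from 0.019 to 0.124), 0.358 and 0.856 for ENSRNOG00000006723 (0.0286 to 0.181), 0.443 and 1.76 for ENSRNOG00000002728 (0.124 to 0.629) and 0.313 and 0.992 for ENSRNOG00000008697 (0.119 to 0.676). The log2 ratio of CHIR99021 3 d ON over withdrawn CHIR99021 was 1.15 for ENSRNOG00000008697 and 1.89 with 1 d OFF in place of 2 d OFF, and the cause was not tested. TMM or DESeq2 scaling moved no ratio of CHIR99021 3 d ON over 2 d OFF, or of CHIR99021 over Wnt3a at 3 and 5 d ON, beyond its counting interval. The count of genes with the on and off pattern was 11 at 5 CPM and 3 at 20 CPM in place of 10 CPM, and 1 of the 2 most like genes was shared under Spearman's rho and under a pseudocount of 0.1 CPM. No paired analysis was possible because the labels give no replicate numbers. Alternatives for the permutation test, and the 1 d OFF comparison, were chosen after seeing the data. Depth limits Wnt3a 1 d ON most.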
